A study of Sus scrofa with 13 samples.

Results

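NAAA, N-acylethanolamine acid amidase (Ensembl identifier ENSSSCG00000008973), was followed across total RNA libraries of the pig by its RPKM (reads per kilobase of feature length, scaled by the library's reads). It was 1 gene of 21607 Ensembl genes among 32420 listed features, was taken by its identifier and not by its values, and was above 0 in all 13 libraries. Of these, 11 were made from single tissues of Guizhou mini-pigs, with kidney, lung, spleen, liver, heart, adipose tissue, ovary and testis at day 240 after birth, and longissimus dorsi, the long muscle of the back, at day 0, day 30 and day 240. The other 2 were RNA mixtures of multiple breeds and time points, 1 of multiple tissues and 1 of longissimus dorsi, with equal quantities of RNA from each sample. No treatment or genetic alteration is named for any library. The study named NAAA as a component of a network of lipid metabolism in longissimus dorsi of other breeds, and those libraries were not analysed here.

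NAAA is a lysosomal enzyme that hydrolyses N-acylethanolamines, fatty acid amides such as palmitoylethanolamide, to a free fatty acid and ethanolamine. It is made as an inactive precursor that cleaves itself in the acidic lysosome, and it is related in sequence to acid ceramidase (ASAH1). Fatty acid amide hydrolase (FAAH) breaks down the same family of lipids on membranes at neutral to alkaline pH, and palmitoylethanolamide and oleoylethanolamide are ligands of the nuclear receptor PPAR alpha (PPARA), a regulator of fatty acid oxidation. In other mammals NAAA is best known from macrophages and lung.

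Each tissue and each stage had a single library, so that conditions could not be tested against each other and a replicate check is lacking throughout. Whole reads were recovered from the RPKM values, and the intervals given are exact 95% intervals of these reads, which cover counting error only and no difference between animals or libraries. The RPKM of the single-tissue libraries had been computed on 21685316 to 38581416 reads, of which 11.6% to 38.0% fell on listed features, and 3 reads of NAAA, taken as the smallest level the depth could show, corresponded to 0.0344 to 0.0612 RPKM. The sum of RPKM over the features ran from 61672 in spleen to 214285 in ovary, so that levels were also computed with equal RPKM sums (the same total) and with libraries aligned on the median gene ratio (the median ratio).

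NAAA was highest in kidney, at 84.3 RPKM (82.3 to 86.3, from 6922 reads). Lung followed with 21.7 RPKM (20.7 to 22.7, 1809 reads). Kidney alone held 59.5% of the 11641 reads of NAAA in the 11 single-tissue libraries. Ovary had 10.3 RPKM (9.47 to 11.3, 507 reads), spleen 9.90 RPKM (9.23 to 10.6, 814 reads) and testis 6.96 RPKM (6.42 to 7.54, 607 reads). Heart had 3.85 RPKM (3.44 to 4.30, 313 reads), liver 3.36 RPKM (2.94 to 3.82, 234 reads) and adipose tissue 2.99 RPKM (2.63 to 3.38, 255 reads). The organs other than kidney thus spread over a broad range, and the kidney level stood apart from them. Longissimus dorsi was lowest, with 1.36 RPKM at day 0 (1.12 to 1.64, 110 reads), 0.616 RPKM at day 30 (0.426 to 0.860, 34 reads) and 0.488 RPKM at day 240 (0.342 to 0.676, 36 reads). These levels were above that of 3 reads in each muscle library. In the tissue mixture NAAA had 8.06 RPKM (7.71 to 8.43, 1973 reads), and in the muscle mixture 1.05 RPKM (0.892 to 1.24, 150 reads). Since the samples were bulk tissue, fewer cells that express NAAA and less NAAA RNA per cell cannot be told apart.

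Rank within a library does not depend on how libraries are scaled. In kidney NAAA was the 91st most abundant of the 21607 Ensembl genes, at percentile 99.6. It was at rank 509 in lung (percentile 97.6) and at rank 1010 in spleen (percentile 95.3). Liver, with rank 2300 (percentile 89.4), and heart, with rank 2760 (percentile 87.2), ranked NAAA higher than ovary did, with rank 3324 (percentile 84.6), although the RPKM of ovary was higher. Adipose tissue had rank 3318 (percentile 84.6) and testis rank 4521 (percentile 79.1). In longissimus dorsi the rank was 6082 at day 0 (percentile 71.9), 6934 at day 30 (percentile 67.9) and 7501 at day 240 (percentile 65.3). Set against the median Ensembl gene above 0 in the same library, NAAA was 64.3-fold as abundant in kidney and 0.700-fold in muscle at day 240. NAAA thus stood among the most abundant genes in kidney and below the median detected gene in adult muscle.

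The level in kidney exceeded that of each other organ at day 240 by more than 2-fold. Against lung, the nearest organ, the ratio was 3.89 (3.69 to 4.10). Against ovary it was 8.14 (7.44 to 8.93), against spleen 8.51 (7.91 to 9.16) and against testis 12.1 (11.13 to 13.17). Against heart it was 21.9 (19.5 to 24.6), against liver 25.1 (22.0 to 28.7), against adipose tissue 28.2 (24.9 to 32.1) and against longissimus dorsi 173 (125 to 247). Each of the 8 intervals lay above 2. The scaling moved the sizes but not this order of kidney over the rest, as the ratio to lung was 3.14 at the same total and 4.56 at the median ratio, and the ratio to muscle 222 and 75.3.

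**Figure D1:**
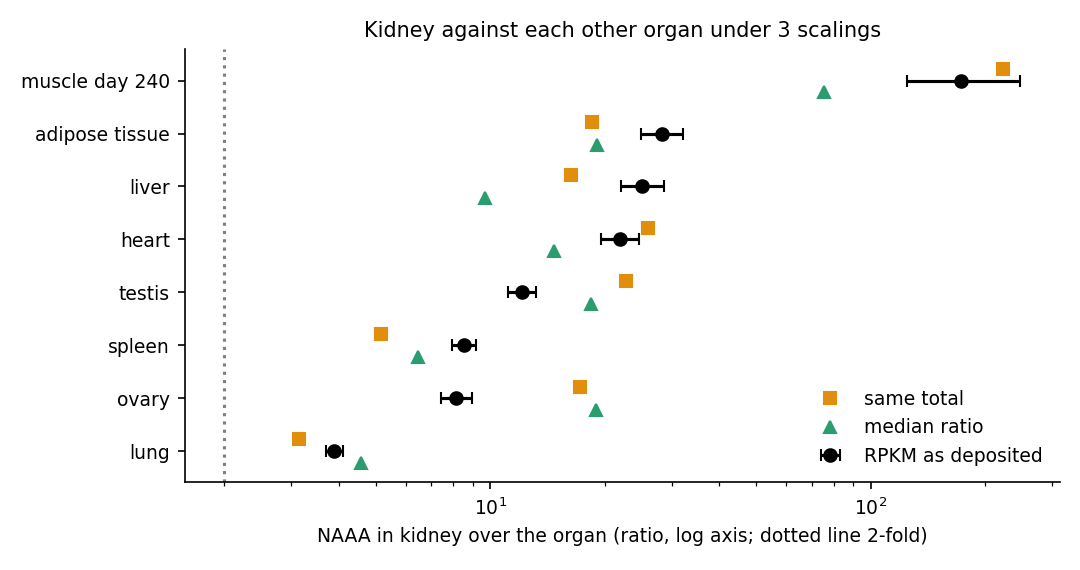
Ratio of NAAA RPKM in kidney to that in each of the other 8 organs at day 240, on a log axis, as deposited with exact 95% intervals and under the same total and the median ratio. All points lie above 2-fold, from 3.14 for lung at the same total to 222 for longissimus dorsi at the same total.

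Many genes were higher in kidney than in a given organ, so the ratios were read against all Ensembl genes with at least 0.1 RPKM in either library. At least 2-fold higher in kidney were 40.2% of the genes against heart, 56.6% against liver, 34.3% against spleen and 17.2% against lung. Against testis it was 19% of the genes, against ovary 12.8%, against adipose tissue 36.3% and against longissimus dorsi 57.9%. A larger ratio than that of NAAA was found for 7.58% of the genes against lung, 7.55% against spleen, 3.72% against heart, 3.59% against ovary, 3.39% against testis, 2.56% against liver, 2.45% against adipose tissue and 0.834% against longissimus dorsi. NAAA was therefore farther from the bulk of the genes against muscle than against lung or spleen. Kidney was at least 2-fold over each of the other 8 organs for 463 of 15252 genes with at least 1 RPKM in an organ (3.04%), and it was the highest organ for 1162 of them (7.62%). By the size of its gap to the next organ NAAA was 254th of the 15252 genes. By its level in kidney it was 24th of the 463 genes and 34th of the 1162. These counts and ranks are of RPKM as deposited and were not repeated in the other scalings. Over the median of the other 8 organs, 5.41 RPKM, kidney was 15.6-fold higher in RPKM, and on the scale of log2(RPKM + 0.1) the difference was 3.94 and 491 genes (3.22%) had a larger one. Tau, which is 0 for a gene of equal level in all organs and 1 for a gene found in a single organ, was 0.419 on that log scale, beside a median of 0.430 over these genes (percentile 48.2). So the kidney level stood apart while NAAA was still read in each organ.

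Several neighbours in the order of levels did not differ beyond counting error. The ratio of ovary to spleen was 1.05 (0.934 to 1.17), of heart to liver 1.15 (0.964 to 1.36) and of liver to adipose tissue 1.12 (0.937 to 1.35). The place of ovary rested on the scaling, since its ratio to spleen was 0.301 at the same total and 0.340 at the median ratio. Likewise heart was below liver in both of these scalings, at 0.625 and 0.660, and testis was below heart at the median ratio, at 0.797. Lung exceeded spleen by 2.19 (2.01 to 2.38) as deposited, by 1.65 at the same total and by 1.41 at the median ratio. In each of the 3 scalings kidney was first, lung second and adult muscle last. Both muscle tissues of day 240 can be set side by side, and heart was 7.89-fold higher than longissimus dorsi (5.58 to 11.5).

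Over the postnatal stages of longissimus dorsi the level of NAAA was lower at each later stage. From day 0 to day 30 it was 2.21-fold lower (1.49 to 3.35), a log2 ratio of -1.15. From day 30 to day 240 it was 1.26-fold lower, with an interval that held no difference (0.766 to 2.07), a log2 ratio of -0.33. From day 0 to day 240 it was 2.79-fold lower (1.90 to 4.19), a log2 ratio of -1.48. The step with the larger difference was the first as deposited, at the same total it was the second (1.46, 0.986 to 2.21, and then 2.02, 1.22 to 3.32), and at the median ratio neither step excluded 1 (1.19, 0.804 to 1.81, and then 1.38, 0.840 to 2.28). From day 0 to day 240 the direction held in each scaling, with 2.94-fold (2.003 to 4.416) at the same total and 1.65-fold (1.12 to 2.47) at the median ratio.

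**Figure D2:**
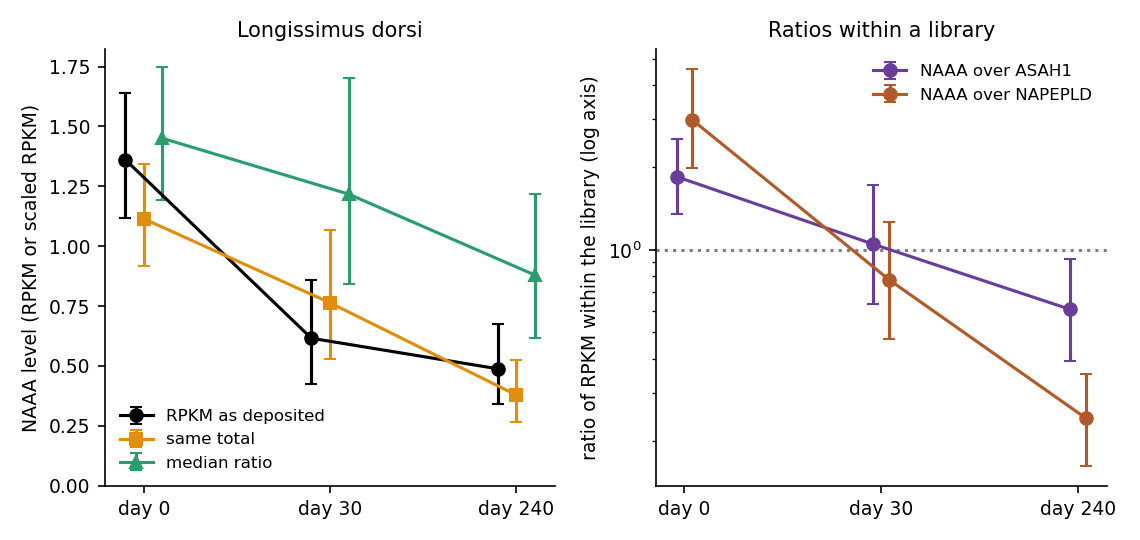
NAAA in longissimus dorsi at day 0, day 30 and day 240, in RPKM with exact 95% intervals beside the 2 scalings (left), and the ratio of NAAA to ASAH1 and NAPEPLD within each library on a log axis (right). NAAA is lower at each later stage in each scaling, and the ratio to NAPEPLD passes from 2.99 to 0.242.

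The differences of NAAA were read against all Ensembl genes of the muscle libraries. At least 2-fold lower were 41.2% of the Ensembl genes at day 30 relative to day 0, 18.2% at day 240 relative to day 30 and 36.8% at day 240 relative to day 0. At least 2-fold higher were 11.4%, 20.6% and 10.4%. On the scale of log2(RPKM + 0.1), the median log2 ratio of all genes tested was -0.75, 0.16 and -0.65 in these comparisons. On the same scale NAAA had -1.03, -0.28 and -1.31. At the median ratio the median of all genes was 0.10, 0.01 and 0.06. A lower ratio than that of NAAA was found for 40.2%, 35.3% and 25.5% of the genes, and a lower level at each later stage, of any size, for 3158 of 13260 genes (23.8%). Differences as large as that of NAAA between muscle stages were therefore found for many genes. Among markers of other cells in these libraries, the summed level of 3 fibroblast genes was 98.8, 96.3 and 38.0 RPKM at day 0, day 30 and day 240. Its members differed, since COL1A2 had 51.2, 21.8 and 3.61 RPKM, COL3A1 24.6, 58.1 and 9.22 RPKM and DCN 23.1, 16.5 and 25.1 RPKM. The sum of 2 endothelial genes was 13.6, 9.25 and 7.34 RPKM, and that of 2 leukocyte genes 0.721, 1.63 and 0.927 RPKM. The sum of 6 macrophage genes was 1.90, 1.68 and 1.08 RPKM, most of which was MRC1 (1.80, 0.812 and 0.794 RPKM), while CD68 (0.0222, 0.292 and 0.0486 RPKM) and C1QA (0.0765, 0.522 and 0.112 RPKM) were highest at day 30. CSF1R, the receptor that defines macrophages, was listed at 0 at day 0 with 1 and 8 reads at day 30 and day 240. These marker levels are as deposited. The order of the stages in the fibroblast, endothelial and macrophage sums rested on the scaling. At the median ratio RPKM was divided by 0.939, 0.506 and 0.555 at day 0, day 30 and day 240. The part of these cells in the difference of NAAA was not tested.

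Among the enzymes that hydrolyse N-acylethanolamines, 3 of 4 listed genes were paired with an identifier (FAAH2 was not). In RPKM as deposited, NAAA was the only one of these with its highest level in kidney. FAAH had 0.739 RPKM in kidney, 0.268 RPKM in lung and its highest single-tissue level, 1.26 RPKM, in ovary. This highest organ rested on the scaling, as RPKM was divided by 2.11 in ovary and by 1 in kidney at the same total. With 5 to 66 reads in a single-tissue library, FAAH was read far less than NAAA. The ratio of NAAA to FAAH within a library was 114 in kidney (89.4 to 148), 80.7 in lung (54.1 to 126), 79.2 in spleen (44.1 to 159) and 3.86 in muscle at day 240 (1.87 to 8.71). NAAA thus exceeded FAAH per length in each of the 13 libraries, with a ratio of 2.03 (1.54 to 2.71) in the muscle mixture.

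ASAH1, the lysosomal relative that splits ceramide, had 10.4 RPKM in kidney, 19.4 RPKM in lung and 10.3 RPKM in spleen. Its highest level as deposited was 38.5 RPKM in ovary. In longissimus dorsi it had 0.736, 0.587 and 0.806 RPKM at day 0, day 30 and day 240. The ratio of NAAA to ASAH1 set the organs apart, since it was 8.12 in kidney (7.58 to 8.70) and 3.29 in liver (2.54 to 4.30). It was 1.33 in heart (1.12 to 1.57), 1.12 in lung (1.05 to 1.19) and 0.965 in spleen (0.877 to 1.06). It was 0.735 in testis, 0.706 in adipose tissue and 0.269 in ovary (0.243 to 0.296). Lung and spleen, the organs next to kidney in NAAA rank, thus had nearly equal levels of both enzymes per length. In muscle the ratio was 1.85 at day 0 (1.35 to 2.55), 1.05 at day 30 (0.637 to 1.72) and 0.606 at day 240 (0.392 to 0.923), so NAAA was above ASAH1 at birth and below it in the adult. As both are taken within a library, these ratios do not depend on its scaling.

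**Figure D3:**
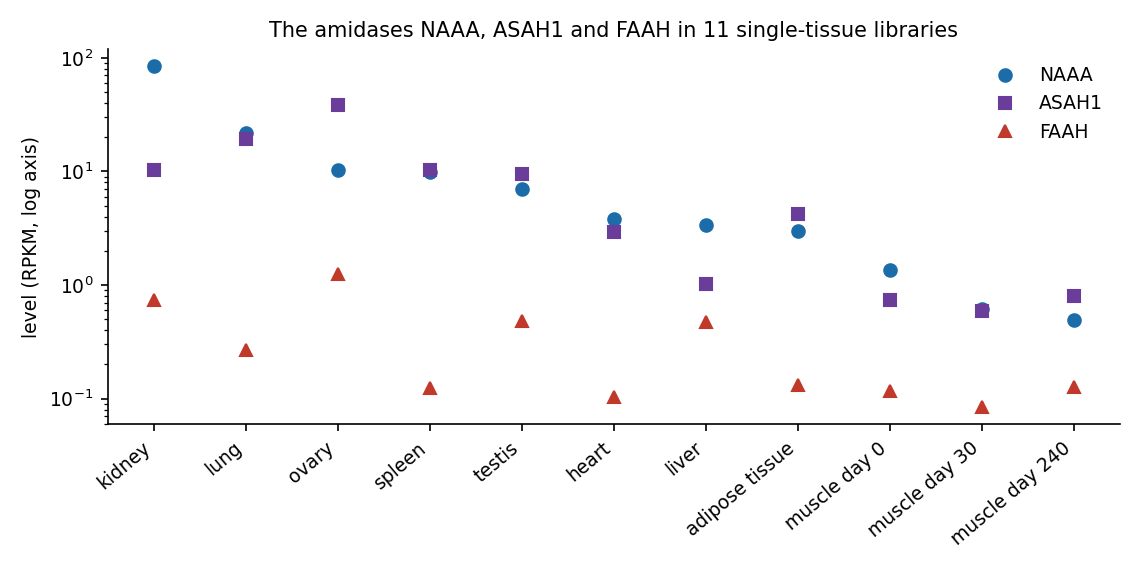
RPKM of NAAA, ASAH1 and FAAH in the 11 single-tissue libraries on a log axis, with 1 point per gene and library. NAAA stands above both others in kidney (84.3 RPKM, beside 10.4 and 0.739 RPKM), ASAH1 stands above NAAA in ovary (38.5 beside 10.3 RPKM), and FAAH is lowest in each library.

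Of the enzymes that form N-acylethanolamines, 6 of 9 listed were paired and 0 were highest in kidney, where 7.62% of all genes were highest, so that the count does not set them apart. NAPEPLD, the phospholipase D that releases N-acylethanolamines from membrane phospholipids, had 0.505 RPKM in kidney and its highest level, 5.38 RPKM, in lung. In longissimus dorsi NAPEPLD had 0.456 RPKM at day 0, 0.792 RPKM at day 30 and 2.01 RPKM at day 240 (32, 38 and 129 reads). Its levels thus ran opposite to those of NAAA over the stages. The ratio of NAAA to NAPEPLD was 167 in kidney (121 to 239), 4.03 in lung (3.61 to 4.51) and 1.07 in adipose tissue (0.887 to 1.29). In muscle it was 2.99 at day 0 (1.998 to 4.576), 0.777 at day 30 (0.475 to 1.27) and 0.242 at day 240 (0.163 to 0.353). The difference between day 0 and day 240 in this ratio was larger than that of NAAA itself.

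Of the other genes of formation, 4 of 5 were highest in a gonad as deposited, as were 30.3% of all genes in testis and 36.3% in ovary. These are the libraries with the largest sums of RPKM. ABHD4 and GDE1, a hydrolase and a phosphodiesterase of the other routes of formation, had 16.8 and 13.1 RPKM in testis beside 1.08 and 1.29 RPKM in kidney. PLAAT3 and PLAAT5, acyltransferases of the N-acylation step, had 27.5 RPKM in ovary and 97.3 RPKM in testis, with 1.51 and 0 RPKM in kidney. The highest organ of PLAAT3 rested on the scaling, as it had 12.9 RPKM in adipose tissue. At the same total RPKM was divided by 0.656 there and by 2.11 in ovary. GDPD3, a lysophospholipase D, was highest in lung with 2.10 RPKM and had 0.842 RPKM in kidney. As deposited, 5 of the 6 genes were at least 2-fold lower in kidney than in testis and 5 than in ovary, beside 45.4% and 54.5% of all genes. The median log2 ratio of the 6 was -2.80 against testis and -2.40 against ovary, where it was -0.80 and -1.14 over all genes.

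Of the receptors, 7 of 8 were paired (GPR55 was not), and 4 reached 1 RPKM in a single-tissue library. As deposited, PPARA was highest in kidney with 5.55 RPKM and had 3.97 RPKM in liver, 2.22 RPKM in heart and 0.435 RPKM in lung. Kidney over liver rested on the scaling, as RPKM was divided by 1 in kidney and by 0.648 in liver at the same total. PPARA thus shared its highest organ with NAAA only as deposited, and did not share the second. Its Pearson's r with NAAA over the 11 single-tissue libraries was 0.11. In longissimus dorsi PPARA had 3.43, 0.679 and 0.986 RPKM at day 0, day 30 and day 240. PPARG, which drives fat cell formation, was highest in adipose tissue with 31.4 RPKM, and PPARD had 2.70 RPKM in kidney and at most 3.13 RPKM elsewhere. The cannabinoid receptor CNR1 reached 2.21 RPKM in ovary and had 0.0969 RPKM in kidney. CNR2, the cannabinoid receptor of immune cells, was highest in spleen with 0.863 RPKM, the cation channel TRPV1 reached 0.204 RPKM in ovary, and GPR119, a receptor of oleoylethanolamide, was listed at 0 in each library.

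In the turnover of 2-acylglycerols, the neighbouring endocannabinoid pathway, 4 of 5 genes were paired and 0 were highest in kidney, beside 7.62% of all genes. MGLL, which hydrolyses 2-arachidonoylglycerol, had 47.1 RPKM in heart, 41.4 RPKM in adipose tissue and 5.71 RPKM in kidney. The other hydrolase ABHD6 was highest in ovary with 12.4 RPKM, and the forming enzymes DAGLA and DAGLB in spleen with 1.06 RPKM and in lung with 1.53 RPKM. FABP5, a carrier of fatty acids and N-acylethanolamines in the cytosol, had 624 RPKM in adipose tissue and 66.0 RPKM in kidney, and FABP7 reached 0.355 RPKM in testis. Only these 2 of 5 fatty acid binding proteins were paired. Among the genes paired in the lists of hydrolysis, formation, 2-acylglycerol turnover, receptors and binding proteins, NAAA and PPARA were the ones highest in kidney as deposited. NAAA kept that place in each scaling and PPARA did not. Over so few genes this is a description.

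NAAA was set beside 27 genes of the lysosome, of 32 listed, among them the transcription factor TFEB. In kidney the 6 with the highest level were CTSB with 183 RPKM, CTSH with 27.4 RPKM, PSAP with 26.2 RPKM, TPP1 with 21.5 RPKM, LAMP1 with 17.4 RPKM and CTSA with 14.8 RPKM. These are proteases (CTSB, CTSH, TPP1, CTSA), the precursor of activators of sphingolipid breakdown (PSAP) and a membrane protein of the lysosome (LAMP1). As deposited, CTSA, CTSB and TPP1 were the 3 of 27 with their highest level in kidney, a share of genes that was 7.62% over all genes. TPP1 alone was at least 2-fold above each other organ there, next to 4.17 RPKM in lung. As deposited, its ratio of kidney to the next organ was 5.16, larger than the 3.89 of NAAA. This order rested on the scaling. At the median ratio RPKM was divided by 1.27 in kidney and by 0.492 in liver, where TPP1 had 3.42 RPKM. Most of the lysosomal genes went with ovary instead as deposited, where 17 of the 27 were highest, beside 36.3% of all genes. The RPKM of ovary was divided by 2.11 at the same total and by 2.96 at the median ratio, beside 1 and 1.27 in kidney. The counts of highest organs were not repeated in these scalings. Kidney over the median of the other organs was 1.67-fold in the median of the 27 genes, with a range of 0.307 to 8.86, beside 15.6-fold for NAAA.

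**Figure D4:**
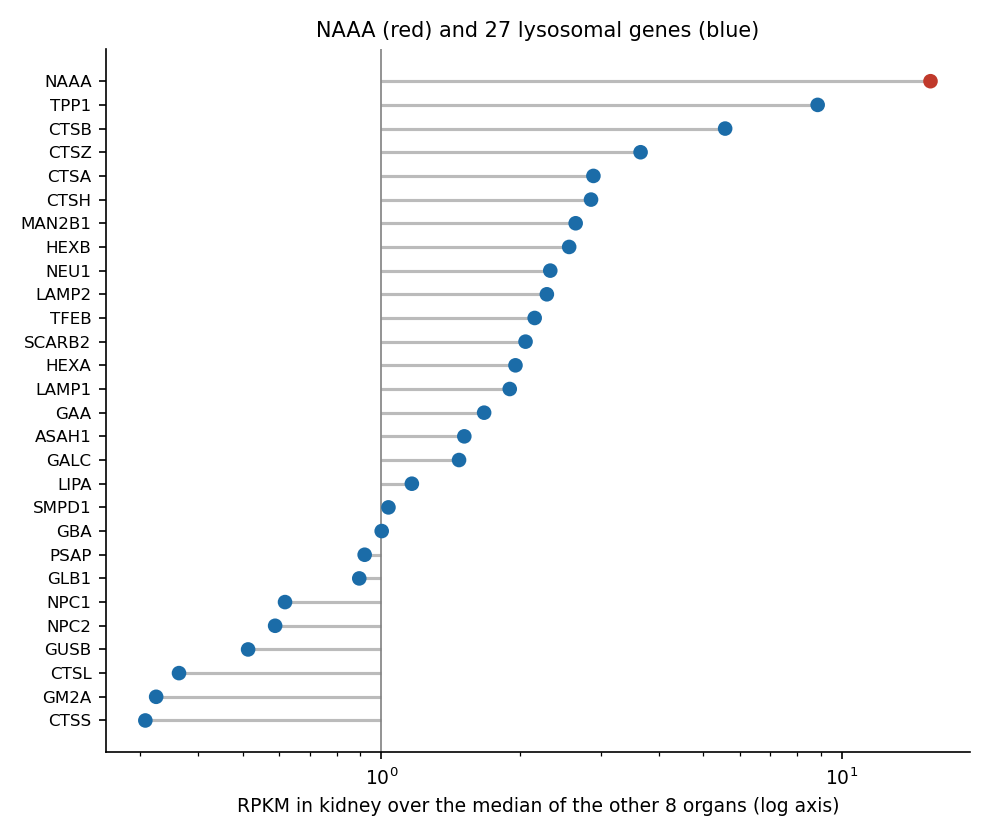
Level in kidney over the median of the other 8 organs for NAAA and the 27 lysosomal genes, on a log axis, with 1 point per gene. NAAA (15.6) lies above each lysosomal gene, of which TPP1 (8.86) is the nearest.

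Most of the lysosomal genes were at least 2-fold higher in kidney than in muscle, and few were so against lung. These counts and medians are of RPKM as deposited. At least 2-fold higher in kidney than in longissimus dorsi at day 240 were 22 of the 27 genes (57.9% of all genes), with a median log2 ratio of 3.05 beside 1.26 over all genes. Of the 27 genes, 0 were at least 2-fold lower there, beside 10.2% of all genes. Against heart 19 were higher and 0 lower (40.2% and 13.8% of all genes), and against adipose tissue 16 and 2 (36.3% and 14.4%). Against liver 18 were higher and 3 lower (56.6% and 9.5% of all genes), against spleen 6 and 4 (34.3% and 18.2%), and against testis 11 and 6 (19% and 45.4%). Against lung 3 were higher and 7 lower (17.2% and 29.8% of all genes), with a median of 0.19 beside -0.27 over all genes. Against ovary 2 were higher and 18 lower (12.8% and 54.5% of all genes), with a median of -1.55 beside -1.14. Between muscle at day 0 and at day 240, 3 of the 27 were at least 2-fold higher and 4 lower (10.4% and 36.8% of all genes). On the log2(RPKM + 0.1) scale their median was -0.33, beside -0.65 for all genes and -1.31 for NAAA. Over the 11 single-tissue libraries, the 27 genes had a median Pearson's r of 0.70 with NAAA on the log2(RPKM + 0.1) scale, beside a median of 0.40 over 15323 genes. Their r ranged from 0.14 for TFEB to 0.94 for CTSA, and the next lowest was 0.44 for NPC1. An r of at least 0.8 was found for 7 of the 27 genes and 4.21% of the 15323. The libraries share their scaling in these values, and genes are not independent replicates.

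The labelled kidney held the markers of its segments. UMOD and SLC12A1 of the thick ascending limb had 165 and 73.4 RPKM there, CUBN of the proximal tubule 66.3 RPKM and AQP2 of the collecting duct 17.5 RPKM, and each of these 4 was highest in kidney. Macrophage markers did not go with NAAA in kidney. The summed level of the 6 paired markers (CD68, CSF1R, MRC1, CD14, MARCO and C1QA, of 11 listed) was 3.06 RPKM in kidney, beside 83.3 RPKM in spleen, 78.4 RPKM in lung, 32.7 RPKM in ovary and 30.2 RPKM in liver. In kidney CD68 had 0.327 RPKM from 15 reads and CSF1R 0.0352 RPKM from 4 reads, the latter near the smallest level the depth could show. In lung MARCO, a receptor of alveolar macrophages, had 45.7 RPKM and in spleen C1QA, of complement, had 54.2 RPKM, so the levels of NAAA in lung and spleen stood beside high macrophage markers, whose part in them was not tested. The lung library also held liver genes, with 343 RPKM of ALB and 14.2 RPKM of TTR beside 5495 and 350 RPKM in liver. NAAA was 3.36 RPKM in that liver library, below its level in lung. ALB and TTR were highest in liver, but APOA1 as paired had only 0.364 RPKM there.

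The genes with a pattern most like NAAA over the 11 single-tissue libraries, by Pearson's r of log2(RPKM + 0.1), were 8 genes with r from 0.94 to 0.97, of which 4 had a symbol. FKBP15, which takes part in endosome transport, had an r of 0.94 and its highest level in kidney, 13.6 RPKM. XAB2, a splicing and repair factor, also had an r of 0.94 and 8.13 RPKM in kidney. The kinase MARK2 and the transcription factor PBX2, each with an r of 0.94, were highest in lung, with 8.63 and 8.98 RPKM. The other 4 were ENSSSCG00000002395, with an r of 0.97 and 22.3 RPKM in kidney, ENSSSCG00000024303, with 0.96 and 1.34 RPKM, ENSSSCG00000017984, with 0.94 and 13.3 RPKM, and ENSSSCG00000016637, with 0.94 and 1.98 RPKM. All 8 were at most 1.79-fold higher in kidney than in the next organ, so none had the gap of NAAA. Without kidney and muscle at day 240, the libraries farthest from the median of NAAA, their r was 0.92 to 0.97. There were 60 genes with an r of at least 0.9 among 15323. The choice was not firm, since 3 of the 8 were also among the first 8 by Spearman's rho and 2 at either of the other scalings. CTSA, a lysosomal carboxypeptidase, came 9th with an r of 0.94.

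Both genes that the study's network text sets beside NAAA, ECHDC2 and TXLNG, were high in kidney. ECHDC2, a mitochondrial protein of the enoyl-CoA hydratase family, had 25.0 RPKM in kidney and 28.1 RPKM in liver, and its r with NAAA was 0.53. TXLNG, a protein of the taxilin family, was highest in kidney with 10.6 RPKM, next to 8.40 RPKM in ovary, and its r was 0.91. In longissimus dorsi ECHDC2 had 2.51, 0.964 and 0.769 RPKM and TXLNG 3.26, 2.22 and 2.06 RPKM at day 0, day 30 and day 240. As deposited, both were therefore lower at each later stage, as were 23.8% of all genes, and ECHDC2 was the one past 2-fold from day 0 to day 240. The order of the stages for TXLNG and the 2-fold of ECHDC2 rested on the scaling. At the median ratio RPKM was divided by 0.939, 0.506 and 0.555 at these stages.

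NAAA lies on chromosome 8 in the RefSeq annotation of Sscrofa11.1, between PPEF2 and SDAD1, and 0 other annotated genes overlap it. Of 11 genes of the same region 9 were paired, and 0 of them were highest in kidney, beside 7.62% of all genes. The 6 with the highest level in kidney were SCARB2 with 13.2 RPKM, USO1 with 10.7 RPKM, G3BP2 with 10.02 RPKM, CDKL2 with 3.38 RPKM, SDAD1 with 2.67 RPKM and NUP54 with 2.17 RPKM. SCARB2, a membrane protein of the lysosome, had its highest level in ovary, with 40.6 RPKM. SDAD1 had 1.61 RPKM in lung and 5.94 RPKM in ovary, and PPEF2 at most 0.0956 RPKM in a single-tissue library. Against lung 0 of the 7 region genes tested were at least 2-fold higher in kidney, beside 17.2% of all genes, and against longissimus dorsi it was 2 of 7, beside 57.9%.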

How the data were processed

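The deposited files hold 1 RPKM value per feature and library, which the authors computed from reads counted with htseq-count after mapping. The labels name TopHat 1.3.2 and Cufflinks, rRNA depletion with Ribo-Zero and strand-specific paired-end libraries made with the SMART or dUTP protocol. The protocol of each library, the use of strand in counting and which reads make the RPKM total are not given in the sources used here, and the genome build of these libraries is not given either.

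Groups were taken from the labels. Whole reads, library totals and feature lengths were recovered from the steps of the RPKM values, with a largest distance of a total from a whole number of 7e-08 and a length giving whole reads for 29462 of 29462 features above 0. In simulated data, 13 of 13 totals were recovered, and so were the length and reads of 21886 of the 21962 features with reads in 4 or more libraries. NAAA had a recovered length of 2259 nt. Levels have exact Poisson and ratios exact conditional binomial 95% intervals. Ratios of all genes used log2(RPKM + 0.1) with at least 0.1 RPKM in either library, and tau and likeness genes of at least 1 RPKM. The text names NAAA, the 8 genes most like it, and members of the lists of hydrolysis, formation, 2-acylglycerol turnover, receptors, binding proteins, lysosome, network partners and chromosome region (in lists over 10, the 6 highest in kidney, and others where a result turns on them). Members and lists were chosen with earlier results of these data known. Symbols were paired for 11654 of 21607 Ensembl genes and for 103 of 147 list genes, 2 of them through names in the study's region tables. A further marker gene is not reported here. Alternatives were 2 other scalings, other pseudocounts, filters and fold limits, and Spearman's rho. Python 3.11.15, numpy 2.4.6, pandas 2.3.3, scipy 1.17.1 and matplotlib 3.10.9 were used.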

Additional observations from a re-analysis of the deposited data

Results flagged for a closer look

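The 2 mixtures enter no comparison between organs or stages, and NAAA was read in both above the 3 reads taken as the smallest level. In the tissue mixture it had 1973 reads (8.06 RPKM, rank 3566 of 21607 Ensembl genes, percentile 83.5), and kidney was 10.5-fold higher (9.941 to 10.99). In the muscle mixture it had 150 reads (1.05 RPKM, rank 9955, percentile 53.9), a level 0.774-fold that of muscle at day 0 (0.601 to 0.999) and 2.16-fold that at day 240 (1.49 to 3.20) as deposited. At the median ratio the latter was 0.619, so the place of the muscle mixture among the stages rested on the scaling.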

How the results depend on the processing

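Kidney over each organ and the lower level at later muscle stages kept their direction in each alternative. The order of other libraries did not, as ovary over spleen (1.05) was 0.301 at the same total and 0.340 at the median ratio, heart over liver (1.15) was 0.625 and 0.660, and at the median ratio testis over heart (1.81) was 0.797, ovary over testis (1.49) 0.972, and the muscle mixture over day 240 (2.16) 0.619. The muscle mixture over day 30 (1.71) was 0.920 and 0.447. No paired analysis was possible because each tissue or stage had 1 library, and for the same reason no replicate could be left out. NAAA in kidney was at least 1.5-fold above 8 of 8 organs and at least 4-fold above 7. With the same total, NAAA had 3.24 RPKM in heart, 5.18 in liver, 16.3 in spleen, 26.8 in lung, 3.71 in testis, 4.90 in ovary, 4.55 in adipose tissue, 1.11 in muscle at day 0, 0.702 in the muscle mixture and 4.92 in the tissue mixture. At the median ratio it had 4.51 in heart, 6.83 in liver, 14.5 in lung, 66.2 in kidney, 3.59 in testis, 3.49 in ovary, 3.47 in adipose tissue, 1.22 in muscle at day 30, 0.880 at day 240, 0.545 in the muscle mixture and 2.95 in the tissue mixture. The log2 ratio of kidney to the organ moved at the same total to 4.70 for heart, 4.02 for liver, 2.37 for spleen, 1.65 for lung, 4.50 for testis, 4.10 for ovary and 4.21 for adipose tissue. At the median ratio it was 3.88, 3.28, 2.69, 2.19, 4.20, 4.24 and 4.26 for these, and 6.23 for muscle. With a pseudocount of 1 it was 4.14 for heart, 4.29 for liver, 2.97 for spleen, 3.42 for testis, 4.42 for adipose tissue and 5.84 for muscle. From day 0 to day 30 of muscle the log2 ratio was -0.55 at the same total, -0.25 at the median ratio and -0.55 with a pseudocount of 1, and from day 0 to day 240 it was -0.72 at the median ratio and -0.67 with a pseudocount of 1.

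The count of Ensembl genes at least 2-fold higher in kidney moved at the same total to 5053 against testis and 3618 against ovary, from 3217 and 2089. At the median ratio it was 3783 against liver, 3768 against ovary, 3649 against adipose tissue and 5325 against muscle. With a pseudocount of 1 it was 2778 against heart, 4218 against liver, 2611 against spleen, 1435 against lung, 1644 against testis, 998 against ovary, 2662 against adipose tissue and 4265 against muscle. With at least 1 RPKM it was 4017 against heart, 1311 against ovary and 5587 against muscle. Genes at least 2-fold lower in muscle from day 0 to day 30 (5286) were 3144 at the same total, 2562 at the median ratio and 2311 with a pseudocount of 1. From day 30 to day 240 (2258) they were 3916 at the same total, 376 with a pseudocount of 1 and 783 with at least 1 RPKM. From day 0 to day 240 (4639) they were 2529 at the median ratio, 1544 with a pseudocount of 1 and 2773 with at least 1 RPKM.

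Among genes above 0, the percentile of NAAA was 80.2 in heart, 84.0 in liver, 93.2 in spleen, 97.0 in lung, 99.4 in kidney, 73.8 in testis, 80.0 in ovary, 78.7 in adipose tissue, 54.1, 49.8 and 42.8 in muscle at day 0, day 30 and day 240, 42.1 in the muscle mixture and 81.4 in the tissue mixture. Among genes of at least 1 RPKM it was 61.3, 59.7, 87.2, 94.95, 98.99, 58.3, 70.4 and 54.3 in these organs, 13.4 in muscle at day 0, 1.504 in the muscle mixture and 73.4 in the tissue mixture, and later muscle stages were below 1 RPKM. Tau was 0.316 with a pseudocount of 0.01, 0.583 with 1, 0.422 at the same total and 0.409 at the median ratio. Of the 8 genes most like NAAA, 3 were shared by Spearman's rho, 2 at the same total and 2 at the median ratio. The depth limits the muscle values most, since they rest on 34 to 110 reads. The cause of these moves was not tested.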

Other observations

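The tissue mixture held NAAA at 9.57% of its level in kidney, and 4 kidney markers at larger shares of theirs, with 19.4% for UMOD, 17.4% for CUBN, 16.6% for AQP2 and 15.3% for SLC12A1. The ratio of NAAA to UMOD within a library was 0.512 in kidney (0.496 to 0.528) and 0.253 in the mixture (0.240 to 0.266), and that to CUBN 1.27 (1.24 to 1.31) and 0.698 (0.664 to 0.733). NAAA was thus lower in the mixture relative to each of these 4 markers, a comparison that was chosen after its values were seen. The mixture differs from the kidney library in breeds, time points and tissues at once, and these cannot be told apart.

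The ratio of NAAA to ASAH1 was 0.611 (0.578 to 0.646) in the tissue mixture and 0.207 (0.173 to 0.247) in the muscle mixture, beside 0.269 in ovary to 8.12 in kidney over the organs at day 240 and 0.606 to 1.85 over the stages of longissimus dorsi.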
